A study of Mus musculus with 16 samples.

Results

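The mitochondrial beta-oxidation spiral enzymes were followed through mouse hearts lacking carnitine palmitoyltransferase 2 (CPT2) and hearts lacking CPT2 together with the mitochondrial deubiquitinase USP30. The 10 genes were chosen by symbol: Acadvl, Acadl, Acadm, Acads, Echs1, Hadh, Hadha, Hadhb, Acaa2 and Decr1. They are 10 of 19654 distinct gene names in the deposited count tables, and all 10 were found in both tables and passed the filter on low counts in both. RNA sequencing of total RNA covered 16 hearts in 4 groups, and the labels call the replicates biological. One table holds 5 wild type hearts and 5 CPT2H-KO hearts. The other holds 3 hearts titled CPT2 single KO and 3 titled CPT2/USP30 double KO. The series describes the CPT2 deletion as restricted to cardiomyocytes, and the single KO and CPT2H-KO hearts carry the same genotype label, CPT2H-KO. USP30 was removed with Myh6-Cre, a Cre recombinase driven by a cardiomyocyte promoter, in USP30fl/fl mice. The labels and design text read here do not name the Cre line used for CPT2, say whether the wild type hearts carried Cre or floxed alleles, or give age, sex or litter. Groups were compared within a table only, so no level in the single KO hearts was tested against wild type. Where an order of genes is given for hearts of both tables, each order was read within its own table.

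Long-chain fatty acids enter the mitochondrial matrix as acylcarnitines, and CPT2 turns them back into acyl-CoA esters on the inner membrane. Each turn of the spiral then runs an acyl-CoA dehydrogenase, a hydratase, a hydroxyacyl-CoA dehydrogenase and a thiolase, and shortens the chain by one acetyl-CoA. The dehydrogenases differ in the chain length they accept, and long chains are handled after the first step by the mitochondrial trifunctional protein, built from the Hadha and Hadhb products. Adult heart muscle draws much of its energy from this pathway.

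Depth was 54674422 to 132762776 counts in each wild type and CPT2H-KO library, and 11067969 to 13532716 counts in each single or double KO library. Cpt2, the targeted gene, had a mean of 77.9 ± 15.2 CPM (counts per 1e6 of the scaled library size; SD, n = 5) among wild type hearts and of 40.4 ± 5.72 CPM (n = 5) among CPT2H-KO hearts, with no overlap. These are bulk heart RNA samples, in which fewer cells of a type and less RNA per cell cannot be told apart. Usp30 averaged 21.0 ± 2.23 CPM over the single KO hearts and, over the double KO hearts, 9.39 ± 1.68 CPM (SD, n = 3 each), also with no overlap. Cardiomyocyte transcripts (Myh6, Tnnt2 and 6 others) summed to between 49759 and 61470 CPM over the 10 libraries of the first table, so the hearts carried the markers of their labelled tissue. Some libraries stood apart in transcripts of atrial muscle (Myl7, Myl4 and Sln). The summed atrial level was 57.1 to 438 CPM in wild type hearts and 45.5 and 353 CPM in CPT2H-KO replicates 1 and 5, but 1.80, 1.16 and 2.02 CPM in CPT2H-KO replicates 2, 3 and 4. It was 2.93 to 3.58 CPM in the single KO hearts and 9.05, 383 and 1434 CPM in double KO replicates 1, 2 and 3. Transcripts of the Y chromosome were near 0 in 1 of 5 wild type, 2 of 5 CPT2H-KO, 1 of 3 single KO and 3 of 3 double KO libraries. How these libraries and levels bear on the members is given with their values.

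Hadha and Hadhb, which encode the 2 subunits of the trifunctional protein, lie head to head on chromosome 5, with Hadha at chr5:30118304-30155162 on the minus strand and Hadhb at chr5:30155248-30184593 on the plus strand (GRCm38, GENCODE M21). Acadl lies at chr1:66830839-66863277, Acadm at chr3:153922357-153944632 and Echs1 at chr7:140105710-140116476, all on the minus strand. So are Acadvl (chr11:70010183-70015411), Acads (chr5:115110299-115119346), Hadh (chr3:131233419-131272101) and Decr1 (chr4:15917240-15945507). Sequence is shown upstream of the genes on which the first comparison turned: the 2 dehydrogenases that moved in opposite directions, the hydratase that fell most, and the stretch between the starts of Hadha and Hadhb. They are taken from the RefSeq promoter table (GRCm38.p6), which held 8 of the 10 genes, and were cut so as to hold no exon. Each reads 5′ to 3′ on the gene's own strand (the Hadha-Hadhb stretch on the plus strand), and capitals mark AGGTCA, or TGACCT as its other strand, the hexamer bound by many nuclear receptors.
Acadl, chr1:66863310-66863559, minus strand: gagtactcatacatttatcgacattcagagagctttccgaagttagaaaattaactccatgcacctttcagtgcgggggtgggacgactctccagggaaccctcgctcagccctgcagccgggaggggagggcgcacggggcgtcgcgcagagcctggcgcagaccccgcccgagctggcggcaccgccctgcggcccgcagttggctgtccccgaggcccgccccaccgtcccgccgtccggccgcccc
Acadm, chr3:153944644-153944893, minus strand: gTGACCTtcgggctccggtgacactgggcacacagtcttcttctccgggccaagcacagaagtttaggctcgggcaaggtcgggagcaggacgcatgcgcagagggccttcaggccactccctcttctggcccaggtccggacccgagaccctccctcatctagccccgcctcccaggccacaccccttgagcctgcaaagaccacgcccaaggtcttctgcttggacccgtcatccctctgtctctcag
Echs1, chr7:140116477-140116671, minus strand: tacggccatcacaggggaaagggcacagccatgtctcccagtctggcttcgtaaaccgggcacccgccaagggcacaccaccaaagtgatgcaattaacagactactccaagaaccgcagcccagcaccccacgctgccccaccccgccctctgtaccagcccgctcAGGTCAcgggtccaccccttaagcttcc
Hadha-Hadhb, chr5:30155163-30155247, plus strand: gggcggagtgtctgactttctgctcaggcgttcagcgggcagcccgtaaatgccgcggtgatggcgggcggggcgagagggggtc
Acadm holds the hexamer at the far end of its stretch and Echs1 close to its start site, whereas the letters are not in the Acadl or the Hadha-Hadhb stretch. In the full promoter windows, 250 bases before to 50 after the start, 3 of the 8 genes held AGGTCA on either strand (Acadm, Echs1 and Acadvl), against 5340 of 32851 windows in the table (16.3%). The longer form AAGGTCA, which contains the hexamer, was in 1 of the 8 (Acadm) and in 4.72% of all windows. A match is a description of the letters and not a binding site. The 85 bases between the Hadha and Hadhb starts are the whole of the intergenic stretch that the pair shares.

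Levels were compared between genes as CPM per kb of each gene's principal transcript. In wild type hearts Hadhb, the thiolase subunit, stood highest at 298 ± 40.2 CPM per kb (SD, n = 5), and its lowest library (256) was above the highest of any other member. Acaa2, the matrix thiolase for shorter chains, followed at 231 ± 25.4, Acadvl at 206 ± 19.4 and Acadm at 205 ± 26.5, and each of these overlapped its neighbour in the order. Hadha at 138 ± 16.1, Acadl at 111 ± 10.2 and Hadh at 109.7 ± 11.7 CPM per kb formed a lower set whose neighbours also overlapped. Echs1 (82.2 ± 7.02), Decr1 (63.4 ± 8.24) and Acads (31.9 ± 3.08) came last, with no overlap between neighbours. In CPT2H-KO hearts Hadhb (336 ± 39.0 CPM per kb), Acaa2 (235 ± 30.3) and Acadvl (230.4 ± 17.2) again held the first places. Acadl came next at 189 ± 33.1 CPM per kb, ahead of Hadha (168 ± 12.0) and Acadm (146 ± 11.1), and each of these overlapped the next. Hadh (107.9 ± 11.0), Decr1 (77.8 ± 7.55), Echs1 (53.5 ± 6.69) and Acads (34.2 ± 4.95) followed without overlap, so Echs1 stood below Decr1 here and above it in wild type.

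Beta-oxidation transcripts did not move together in CPT2H-KO hearts. Of the 10 members, 3 rose (Acadl, Hadha and Decr1) and 2 fell (Acadm and Echs1) at an adjusted p below 0.05, edgeR's quasi-likelihood test with Benjamini-Hochberg adjustment over 14123 genes. That share is to be read against the 33.7% of all tested genes that passed in this comparison, 16.7% higher and 17.0% lower (44.5% had an unadjusted p below 0.05). The groups did not overlap for 4 members, Acadl and Decr1 higher and Acadm and Echs1 lower, where 24.7% of all tested genes did not overlap (11.5% higher, 13.2% lower). The median log2 fold change of the members was 0.13, and that of all tested genes was -0.01. Summed over the 10 members the wild type hearts averaged 3165 ± 345 CPM (2759 to 3503) and the CPT2H-KO hearts 3449 ± 260.1 CPM (3074 to 3771; SD, n = 5 each), so the summed levels overlapped. All p-values set a difference against the spread between these hearts only.

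**Figure D1:**
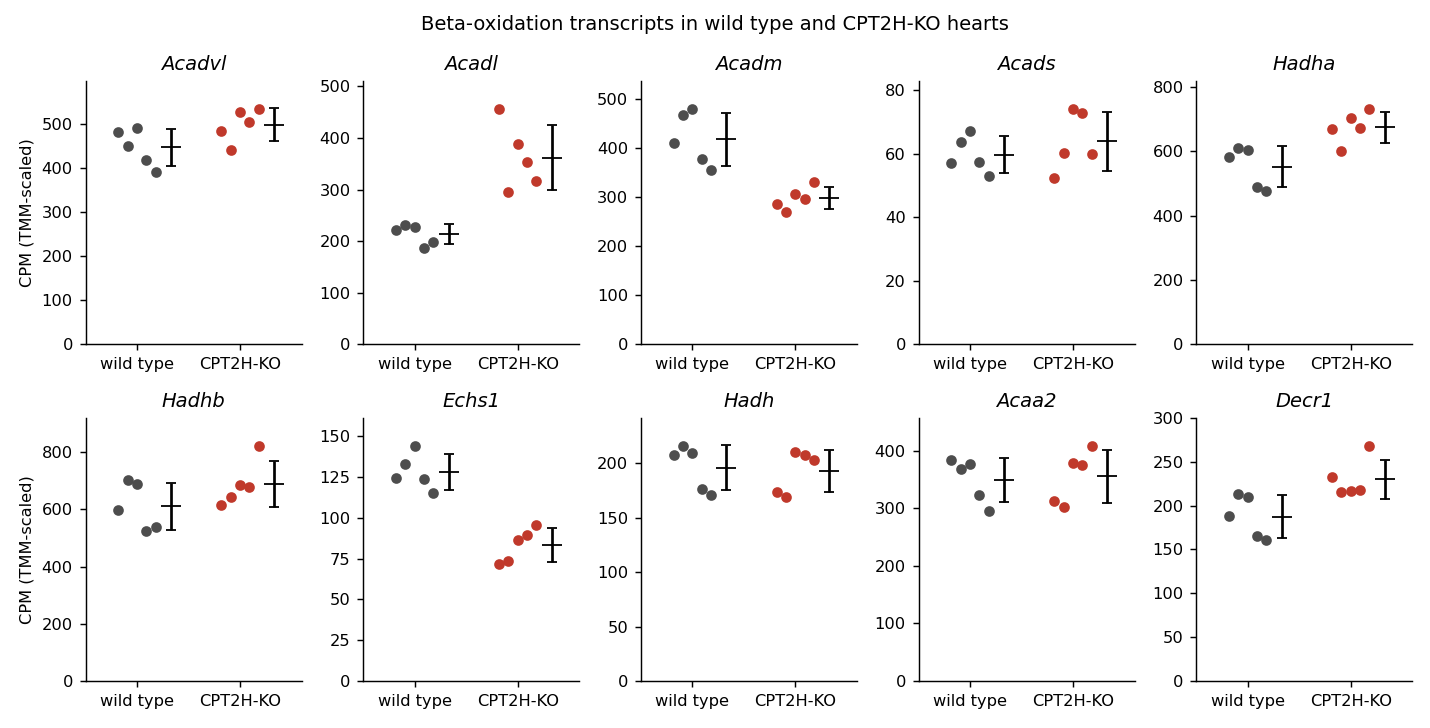
CPM (linear axis from 0) of each of the 10 enzymes in the 5 wild type and 5 CPT2H-KO hearts; points are libraries and bars show the mean and SD. All 5 CPT2H-KO points lie above wild type for Acadl and below it for Acadm and Echs1, those of Decr1 lie just above it, and the groups overlap for Acadvl, Acads, Hadh, Hadha, Hadhb and Acaa2.

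The acyl-CoA dehydrogenases open each turn. Acadl, the long-chain enzyme, was at 221, 232, 228, 187 and 198 CPM in wild type replicates 1 to 5. In CPT2H-KO replicates 1 to 5 it was at 456, 295, 388, 354 and 317 CPM. Every CPT2H-KO heart was above every wild type heart, and CPT2H-KO replicate 1 was the highest. Acadl rose by 0.76 on the log2 scale (SE 0.12, edgeR adjusted p = 8.35e-04), the largest rise among the members. Acadm, the medium-chain enzyme, went the other way: 411, 468, 479.8, 378 and 356 CPM in wild type, then 287, 270.5, 307, 296 and 331 CPM in CPT2H-KO hearts. The highest CPT2H-KO value, 331 CPM, lay below the lowest wild type value, 356 CPM. Acadm fell by 0.49 (log2, SE 0.10, edgeR adjusted p = 0.00295). Among the libraries with atrial transcripts alone (all wild type, CPT2H-KO replicates 1 and 5), a choice made after seeing the data, Acadl was higher by 0.86 (edgeR adjusted p = 0.00599) and Acadm lower, at -0.44 on the same scale (adjusted p = 0.0494).

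Very-long-chain and short-chain dehydrogenases did not pass the test. Acadvl, the membrane-bound enzyme that takes the longest chains, was at 484, 450.2, 492, 419.9 and 393 CPM in wild type. In CPT2H-KO hearts it was at 485, 442, 528, 507 and 534 CPM, and the 2 groups overlapped (log2 difference 0.16, SE 0.08, 95% interval -0.02 to 0.34, edgeR adjusted p = 0.160). Acads, the short-chain enzyme, was at 56.9, 63.8, 67.3, 57.5 and 53.0 CPM in wild type. Its CPT2H-KO values, 52.5, 60.3, 74.0, 72.9 and 59.8 CPM, reached both below and above the wild type range. The log2 difference for Acads was 0.10 (SE 0.11, 95% interval -0.13 to 0.33, edgeR adjusted p = 0.499), and its sign turned with the atrial level as a covariate (-0.037, adjusted p = 0.859) and in the libraries with atrial transcripts alone (-0.088, adjusted p = 0.592).

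The make-up of the dehydrogenase step follows from these levels. Of the summed CPM per kb of the 4 dehydrogenases, Acadl made up 20.1% ± 0.833 in wild type (19.3% to 21.2%) and 31.4% ± 3.92 in CPT2H-KO hearts (27.3% to 37.7%; SD, n = 5 each). Acadm made up 36.8% ± 1.47 (35.2% to 38.7%) and 24.4% ± 1.69 (22.3% to 26.7%). The ranges of both shares were apart. Acadvl held 37.3% ± 1.53 and 38.5% ± 1.88, and Acads 5.77% ± 0.265 and 5.72% ± 0.840. These shares restate the values above on a scale that library size does not touch and were not tested again.

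**Figure D2:**
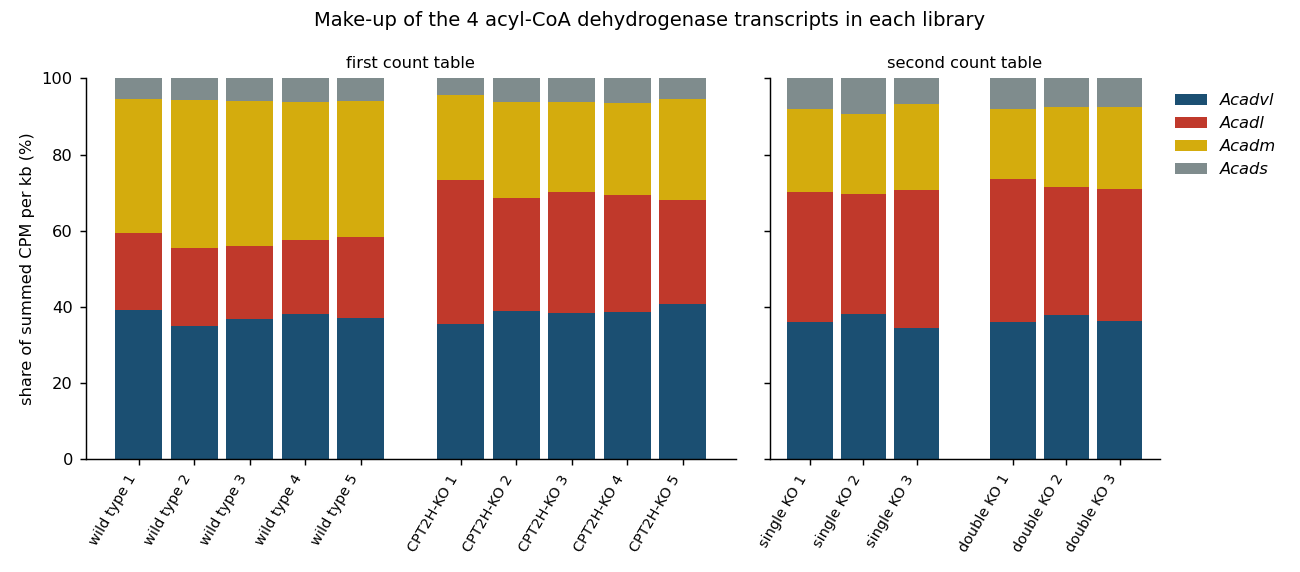
Share (%) of the summed CPM per kb of 4 acyl-CoA dehydrogenase transcripts in each library, 1 bar per library, for the first count table (left) and the second (right). The Acadl part covers 19.3% to 21.2% of each wild type bar and 27.3% to 37.7% of each CPT2H-KO bar; the 2 tables were not compared with each other.

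Hydration of the enoyl-CoA follows. Echs1, the matrix hydratase for short and medium chains, was at 124, 133, 144, 124 and 115 CPM in wild type. In CPT2H-KO hearts it was at 71.5, 73.6, 86.3, 89.5 and 95.7 CPM. No CPT2H-KO heart reached the wild type range. Echs1 fell by 0.62 on the log2 scale (SE 0.09, edgeR adjusted p = 8.11e-04), the largest fall among the members.

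Long chains pass through the trifunctional protein instead. Hadha, its hydratase and hydroxyacyl-CoA dehydrogenase subunit, was at 584, 609.6, 606, 488 and 478 CPM in wild type. Its CPT2H-KO values were 669, 603, 704, 672 and 732 CPM. Replicate 2, at 603 CPM, fell within the wild type range and the other 4 CPT2H-KO hearts lay above it. Hadha rose by 0.29 (log2, SE 0.09, edgeR adjusted p = 0.0299), a call lost with 1 library left out (adjusted p = 0.0710 without wild type replicate 4, 0.0577 without wild type replicate 5, 0.0591, 0.0529 and 0.0614 without CPT2H-KO replicates 3, 4 and 5) and with library totals as the only scaling (log2 difference 0.03). It was also lost with a Y-linked covariate (adjusted p = 0.0542) and in the libraries with atrial transcripts alone (log2 difference 0.34, adjusted p = 0.0730). Hadhb, the thiolase subunit, was at 599, 701, 689, 525 and 538 CPM in wild type. It was at 613, 643, 684, 679 and 822 CPM in CPT2H-KO hearts, and only replicate 5 lay above the wild type range. The log2 difference for Hadhb was 0.17 (SE 0.11, 95% interval -0.06 to 0.41, edgeR adjusted p = 0.239).

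Hadh and Acaa2 act on shorter chains, as the matrix hydroxyacyl-CoA dehydrogenase and the matrix thiolase. Hadh was at 208, 216, 209.8, 176 and 171 CPM in wild type, then at 174, 169, 210.4, 208 and 203 CPM in CPT2H-KO hearts. The log2 difference for Hadh was -0.02 (SE 0.09, 95% interval -0.23 to 0.18, edgeR adjusted p = 0.869). Its sign turned under several alternatives, and with library totals as the only scaling it was called lower (-0.29, adjusted p = 0.0398). Acaa2 was at 384, 369, 377, 323 and 296 CPM in wild type, then at 313, 302, 379.6, 375 and 408 CPM in CPT2H-KO hearts, again with overlapping ranges. The log2 difference for Acaa2 was 0.02 (SE 0.11, 95% interval -0.21 to 0.26, edgeR adjusted p = 0.880). These 2 genes varied among the hearts in like fashion, high in wild type replicates 1 to 3 and low in wild type replicates 4 and 5 and in CPT2H-KO replicates 1 and 2.

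Decr1, the mitochondrial dienoyl-CoA reductase, prepares polyunsaturated chains for the spiral. It was at 188, 213, 210.0, 165 and 161 CPM in wild type, then at 233, 215, 217, 218 and 268 CPM in CPT2H-KO hearts. The groups met closely, with 213 CPM as the highest wild type value and 215 CPM as the lowest CPT2H-KO value. Decr1 rose by 0.30 (log2, SE 0.10, edgeR adjusted p = 0.0399). The call was lost without wild type replicate 1, 4 or 5 (adjusted p = 0.0755, 0.0940 and 0.0809), without CPT2H-KO replicate 1, 4 or 5 (0.0581, 0.0521 and 0.0836) and with library totals as the only scaling (log2 difference 0.03). With a Y-linked covariate the adjusted p was 0.0565, and in the libraries with atrial transcripts alone it was 0.0510 (log2 difference 0.42). Library totals moved the median of all tested genes to -0.27, and the mitochondrially encoded transcripts, which made up 57.9% to 63.0% of counts in wild type, made up 61.9% in CPT2H-KO replicate 2 and 67.7% to 68.8% in the other 4 CPT2H-KO hearts. With the totals of nuclear genes as the only scaling, an alternative added after seeing the data, all 5 calls were kept.

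**Figure D3:**
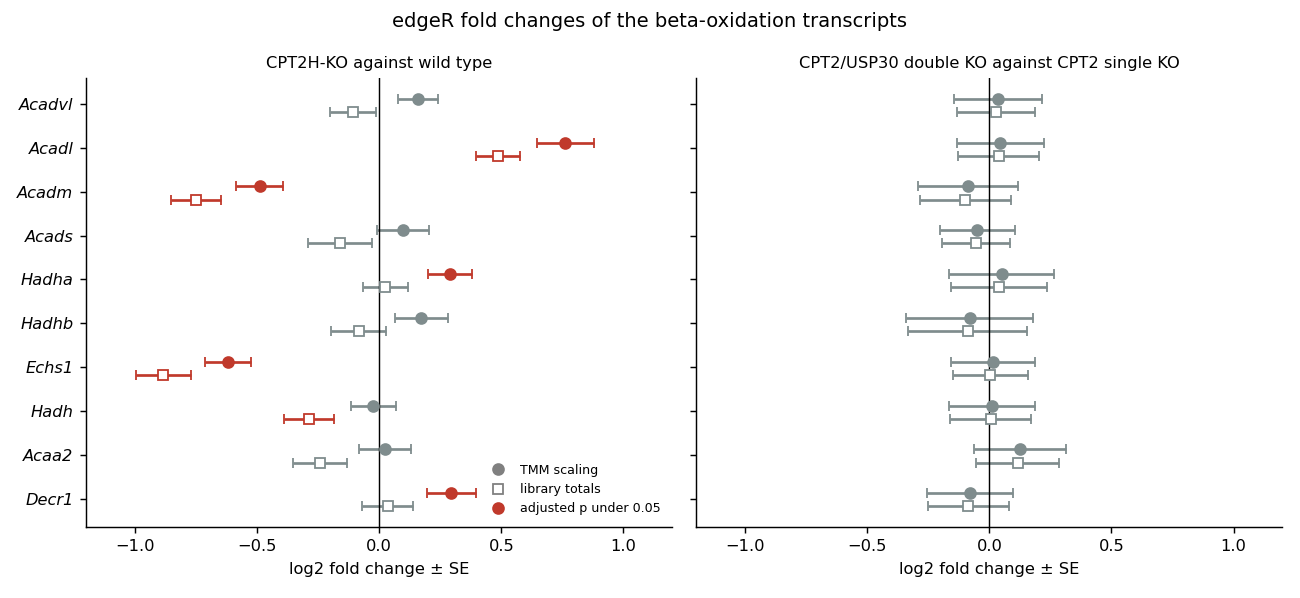
Log2 fold change of each of the 10 enzymes with its SE (horizontal axis), CPT2H-KO against wild type on the left and CPT2/USP30 double KO against CPT2 single KO on the right; filled circles use TMM scaling, open squares library totals as the only scaling, and red marks an adjusted p under 0.05. With TMM the values on the left run from -0.62 (Echs1) to 0.76 (Acadl); those on the right lie between -0.09 and 0.13 and none was called. With library totals the left values are lower: Hadha and Decr1 are not called and Hadh is called lower.

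Ratios of 2 transcripts within a library do not depend on how libraries are scaled. In all, 5 such ratios were compared, each with an exact two-sided permutation test over the 10 hearts whose smallest possible p is 0.00794, adjusted over the 5. The pairs were chosen by the enzymes' roles with earlier results of these data known. Acadm against Acadl and Echs1 against Hadha each set a member called lower against one called higher. The other ratios, Acadl against Acadvl, Hadh against Hadha and Hadha against Hadhb, each set a called member against an uncalled one. All 5 ratios reuse the counts behind the calls on another scale and are not separate support for them. Acadm against Acadl, the medium-chain over the long-chain enzyme, ran from 0.85 to 1.07 (log2) in wild type and was -0.67, -0.12, -0.33, -0.26 and 0.06 in CPT2H-KO replicates 1 to 5. The mean went from 0.97 ± 0.09 to -0.26 ± 0.27, a difference of -1.23 (SE 0.13, exact permutation p = 0.00794, adjusted 0.00992). The 2 sets of hearts were far apart in this ratio, with CPT2H-KO replicate 5 the nearest to wild type. Acadl against Acadvl rose from -1.07 ± 0.09 to -0.48 ± 0.24, a difference of 0.59 (SE 0.12) with the same exact permutation p. Echs1 against Hadha, the short-chain over the long-chain hydratase, ran from -2.23 to -1.98 in wild type and from -3.22 to -2.91 in CPT2H-KO hearts. That difference was -0.92 (SE 0.07, exact permutation p = 0.00794, adjusted 0.00992).

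Hadh against Hadha compares the 2 hydroxyacyl-CoA dehydrogenases. In wild type it was the tightest of the 5 ratios, at -1.49 ± 0.02 (log2), with all 5 hearts between -1.53 and -1.47. In CPT2H-KO hearts it lay between -1.94 and -1.69, a difference of -0.32 (SE 0.05, exact permutation p = 0.00794, adjusted 0.00992). For 4 of the 5 ratios the groups did not overlap. Each kept an adjusted p of at most 0.0198 with any 1 heart left out. The exception was Hadha against Hadhb, the 2 subunits of 1 complex, which went from -0.14 ± 0.07 to -0.02 ± 0.11 with overlapping ranges (difference 0.12, SE 0.06, exact permutation p = 0.0714, adjusted 0.0714). That ratio passed without wild type replicate 1 (0.14, adjusted 0.0317) or without CPT2H-KO replicate 5 (0.15, adjusted 0.0317).

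**Figure D4:**
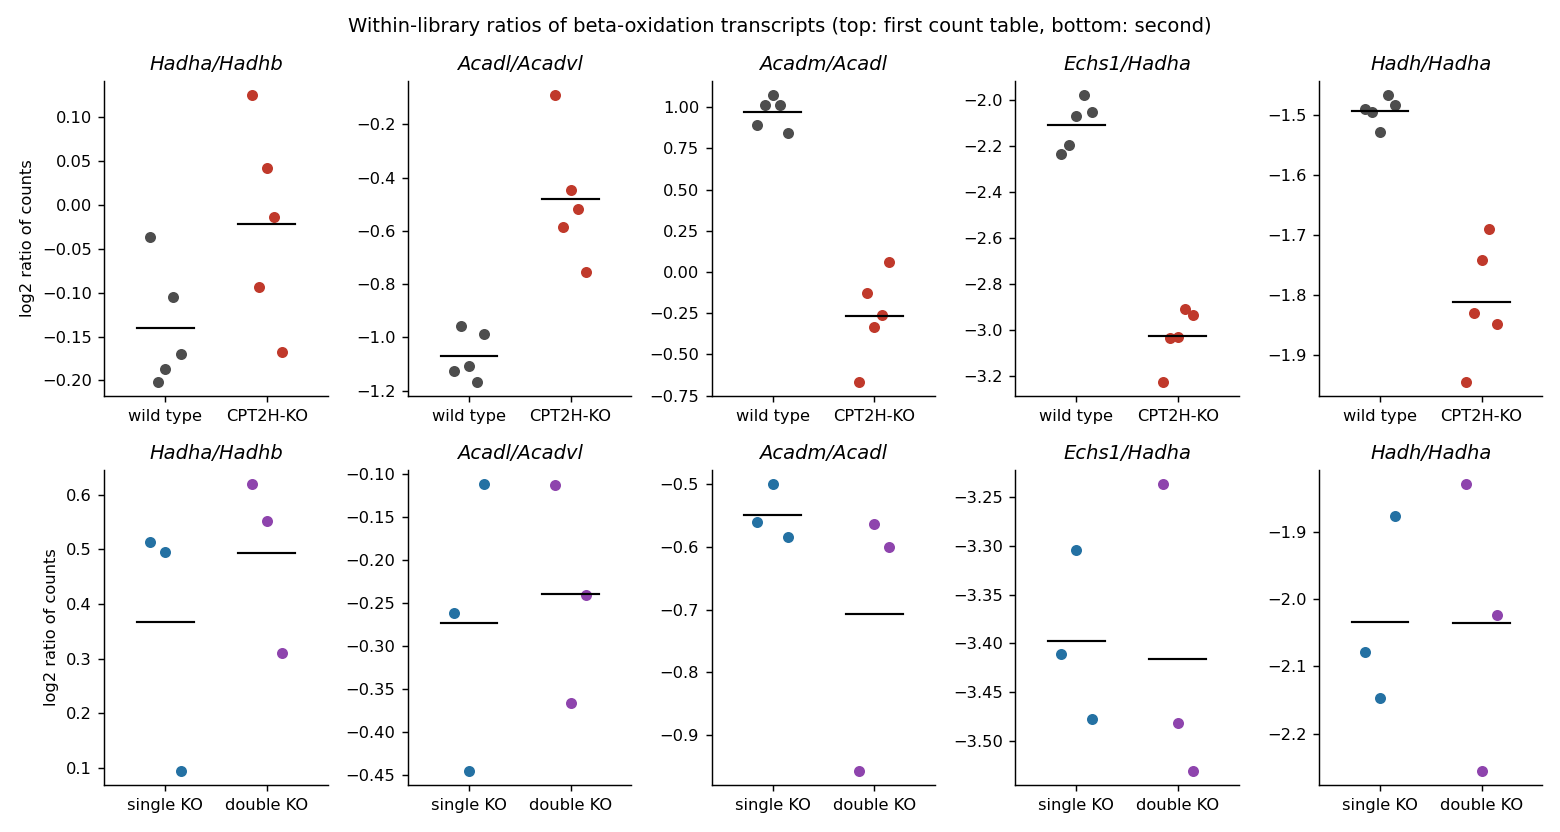
Log2 ratio of counts of 2 enzymes within each library (vertical axis, scaled separately in each panel) for 5 pairs; points are libraries and the line is the group mean. In the top row, wild type and CPT2H-KO hearts do not overlap for 4 pairs and overlap for Hadha/Hadhb; in the bottom row, single and double KO hearts overlap for all 5.

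Likeness between genes was measured as the SD, over the 10 hearts, of the log2 ratio of 2 genes, a description in which all points share libraries. Group means were not removed, so genes that differed between the groups in opposite directions come out far apart by this measure. Against 12648 genes, the closest to Hadh was Acaa2 (SD 0.063), and the closest to Acaa2 was Hadh. Hadha was nearest to mt-Co1, a mitochondrially encoded subunit of cytochrome oxidase (0.069), and then to Decr1 (0.076). Decr1 in turn was nearest to Ephx2, an epoxide hydrolase (0.075), and then to Hadha. Hadhb ranked 25 among the genes nearest to Hadha (0.108), its head-to-head neighbour. Echs1 and Acadm, the members that fell, had an SD of 0.117 against each other, where Acadl and Acadm had 0.677. The nearest genes to the remaining members were Crat, carnitine acetyltransferase, for Acadvl (0.040), Pgm2 for Acadl (0.062), Gbas for Acadm (0.043), Inppl1 for Acads (0.049), Pgm5 for Echs1 (0.060) and Ptges3 for Hadhb (0.082).

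Genes around the spiral were read from lists. Counts of genes called, here and among the cell type markers below, are to be read against the 33.7% of all tested genes called. Of all tested genes, 16.7% were called higher and 17.0% lower. Among 10 electron-transfer and auxiliary genes 1 rose and 2 fell: Acad9, a dehydrogenase homologue needed for complex I assembly, rose by 0.24 (log2, edgeR adjusted p = 0.0152). Etfb, a subunit of the flavoprotein that takes electrons from the dehydrogenases, fell by 0.43 (edgeR adjusted p = 0.0109). Acad12 fell by 0.68 (edgeR adjusted p = 0.0148). The list's median was -0.08.

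The acyl-CoA dehydrogenases of amino acid breakdown share the fold and the electron acceptor of the spiral's dehydrogenases, and all 4 of them fell, with no overlap between groups and a median log2 fold change of -0.77. Of all tested genes, 17.0% were called lower and 13.2% were lower with no overlap. Ivd, which acts on isovaleryl-CoA from leucine, went from 109 ± 17.8 to 58.9 ± 16.8 CPM (log2 -0.88, edgeR adjusted p = 0.00464). Acadsb, for short branched chains, went from 52.8 ± 5.89 to 29.4 ± 4.27 CPM (log2 -0.85, adjusted p = 3.32e-04). Gcdh, for glutaryl-CoA, went from 26.9 ± 3.63 to 16.6 ± 2.98 CPM (log2 -0.70, adjusted p = 0.00265; SD, n = 5 in each group).

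In the carnitine shuttle 2 of 5 rose and 1 fell, with a median log2 fold change of 0.19. Cpt1b, the muscle form of the outer-membrane transferase, went from 6.68 ± 0.523 to 9.86 ± 0.630 CPM (log2 0.56, edgeR adjusted p = 4.11e-04). Its mean stood below that of Cpt1a in both of these groups. Among single KO hearts the order was the reverse, with Cpt1b at 1473 ± 71.7 CPM and Cpt1a at 146 ± 15.3 CPM (SD, n = 3). The reason was not tested, and the low Cpt1b level here is to be read with that limit. Cpt1a, the liver form, went from 30.8 ± 13.3 to 61.9 ± 12.8 CPM (log2 1.01, adjusted p = 0.0480), and Cpt2 fell by 0.95 (adjusted p = 9.71e-04). For Cpt1a, wild type replicate 2 was at 7.08 CPM and the other wild type hearts were at 34.8 to 37.8 CPM. That library lowered the wild type mean and widened its SD. Of 4 genes that dispose of propionyl-CoA, the end product of odd chains, 2 fell: Mut by 0.81 (edgeR adjusted p = 8.42e-04) and Mcee by 0.44 (adjusted p = 0.00756). The value for Pcca was 0.20 (adjusted p = 0.249), and the list's median was -0.22.

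Peroxisomal beta-oxidation, which shortens very long chains outside mitochondria, had 2 of 11 genes higher and 2 lower, with a median of 0.02. Abcd2, a peroxisomal acyl-CoA transporter, fell by 1.67 on the log2 scale (edgeR adjusted p = 1.18e-04) and Scp2 by 0.44 (adjusted p = 0.00223). Decr2, the peroxisomal counterpart of Decr1, rose by 0.32 (adjusted p = 0.00347). Among 17 transcriptional regulators of fatty acid oxidation 5 rose and 4 fell, with a median of 0.10. Klf15, a Kruppel-like factor that drives lipid use in heart, fell by 1.04 (edgeR adjusted p = 6.36e-04). Esrrg, an orphan receptor active on mitochondrial genes, rose by 0.40 (adjusted p = 0.00402), and Rxra, a partner of the PPAR receptors, fell by 0.35 (adjusted p = 0.00718).

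Some transcripts of other kinds moved with the first comparison. Of 8 cardiomyocyte markers 1 rose (Mybpc3, log2 0.47). Tnni3 (-1.03), Actc1 (-0.58), Tnnt2 (-0.46) and Myl2 (-0.40) fell, and Ttn, Myh6 and Ryr2 were not called. Summed levels were 53388 to 61470 CPM among wild type and 49759 to 58172 CPM among CPT2H-KO hearts. Ttn was the largest part of these sums (means of 33760 and 33875 CPM), so they say little about the other markers. Of 6 fibroblast markers 3 rose, all collagen chains: Col1a1 (log2 1.41), Col1a2 (1.08) and Col3a1 (0.87). Pdgfra (0.23), Dcn (0.02) and Dpt (-0.38) were not called. The fibroblast sums were 709 to 1097 CPM in wild type and 1022 to 1790 CPM in CPT2H-KO hearts. Of 6 endothelial markers 1 fell (sums 293 to 382 and 307 to 397 CPM), and none of the 6 macrophage (101 to 137 and 87.4 to 129 CPM) or 6 red blood cell markers (74.4 to 207 and 21.6 to 206 CPM) was called. Of 6 adipocyte markers 3 were tested and none was called, with sums of 0.843 to 8.52 and 0 to 5.27 CPM. The part of these cell types in the members' values was not tested.

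Counting without strand could mix reads where genes overlap, and the sources used here do not name the counting program. Acadvl shares 1151 exon bases with Dvl2 on the opposite strand, and Dvl2 went from 2.48 ± 0.114 to 2.37 ± 0.404 CPM between wild type and CPT2H-KO hearts (SD, n = 5 each). Echs1 shares 142 exon bases with Paox, which was at 1.79 ± 0.197 and 1.38 ± 0.350 CPM. Within Acadl lies the pseudogene Gm15793 on the same strand, which shares no exon base with it and was at 0.368 ± 0.159 and 0.753 ± 0.209 CPM.

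With USP30 lost in addition to CPT2, no member was called. None of the 12997 tested genes passed in this comparison (0%, edgeR adjusted p below 0.05; 942 genes, 7.25%, had an unadjusted p below 0.05; DESeq2 called 124 and limma-voom 0), so the 0 of 10 members stands at the background. All 10 members overlapped between single and double KO hearts, where 11.8% of all tested genes did not (6.69% higher, 5.07% lower). The median log2 difference of the members was 0.01, and that of all tested genes was 0.00. Usp30 itself, which differed by -1.16 (log2, SE 0.18), did not pass with an edgeR adjusted p of 0.147.

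Among the dehydrogenases, Acadl was at 1137, 995 and 1397 CPM in single KO replicates 1 to 3 and at 1108, 1376 and 1155 CPM in the double KO hearts. The log2 difference was 0.04 (SE 0.18, 95% interval -0.36 to 0.44, edgeR adjusted p = 0.983). Acadm was at 771, 704 and 931 CPM and at 571, 931 and 763 CPM (log2 difference -0.09, SE 0.20, 95% interval -0.55 to 0.37, adjusted p = 0.965). Both pairs of ranges overlapped. Acadvl was at 1363, 1355 and 1509 CPM against 1198, 1773 and 1365 CPM (0.04, SE 0.18, 95% interval -0.37 to 0.44). Acads was at 264, 288 and 255 CPM against 232, 300.4 and 248 CPM (-0.05, SE 0.15, 95% interval -0.39 to 0.29). In both of these the double KO hearts spanned the whole single KO range.

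Hadha was at 2725, 2581 and 2875 CPM in single KO, then at 2006, 3569 and 2902 CPM in double KO hearts (log2 difference 0.05, SE 0.22, 95% interval -0.43 to 0.53, edgeR adjusted p = 0.983). Hadhb was at 1909, 1832 and 2692 CPM and at 1306, 2436 and 2342 CPM (-0.08, SE 0.26, 95% interval -0.66 to 0.50). Its interval was the widest of the 10. Echs1 was at 256, 261 and 258 CPM in single KO hearts, the tightest group of any member, and at 213, 319.5 and 251 CPM in double KO hearts (0.01, SE 0.17, 95% interval -0.37 to 0.40). Hadh was at 645, 583 and 783 CPM against 564.6, 748 and 714 CPM (0.01, SE 0.18, 95% interval -0.39 to 0.41). Acaa2, the member with the largest difference, was at 1087, 999 and 1185 CPM against 966, 1481 and 1124 CPM (0.13, SE 0.19, 95% interval -0.29 to 0.55, edgeR adjusted p = 0.937). Double KO replicate 2 lay above the single KO range for Hadha, Echs1 and Acaa2, as it did for Acadvl and Acads. Decr1 was at 491, 418 and 587 CPM against 409, 538 and 469 CPM (-0.08, SE 0.18, 95% interval -0.48 to 0.32).

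The double KO hearts kept 1 order for every member. Replicate 1 was the lowest and replicate 2 the highest of the 3 for 10 of 10 genes. The share of all genes with this order was not counted, so it is not shown to be particular to the members. Crat had it too (743, 1252 and 1011 CPM), and Cpt2 did not (176, 189 and 166 CPM). Over all genes, chi-square per degree of freedom was 64.9 and 57.1 for replicate 1 against replicates 2 and 3. Between replicates 2 and 3 it was 18.7. In the single KO hearts replicate 2 was the lowest for 8 of 10 and replicate 3 the highest for 8 of 10. The summed level of the members averaged 11046 ± 1274 CPM over single KO hearts against 11125 ± 2455 CPM over double KO hearts (8573 to 13470; SD, n = 3 each). Summed cardiomyocyte markers were 75412, 107983 and 84567 CPM in double KO replicates 1, 2 and 3, the same order as the members, and 78553, 87087 and 84375 CPM in the single KO hearts. Myh6, the largest part of the double KO sums (36558, 64979 and 49836 CPM), kept that order, as did Ttn and Ryr2. Actc1, Myl2, Tnnt2, Tnni3 and Mybpc3 did not keep it. The atrial level was also lowest in double KO replicate 1, but highest in replicate 3. Whether these moved the members was not tested.

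**Figure D5:**
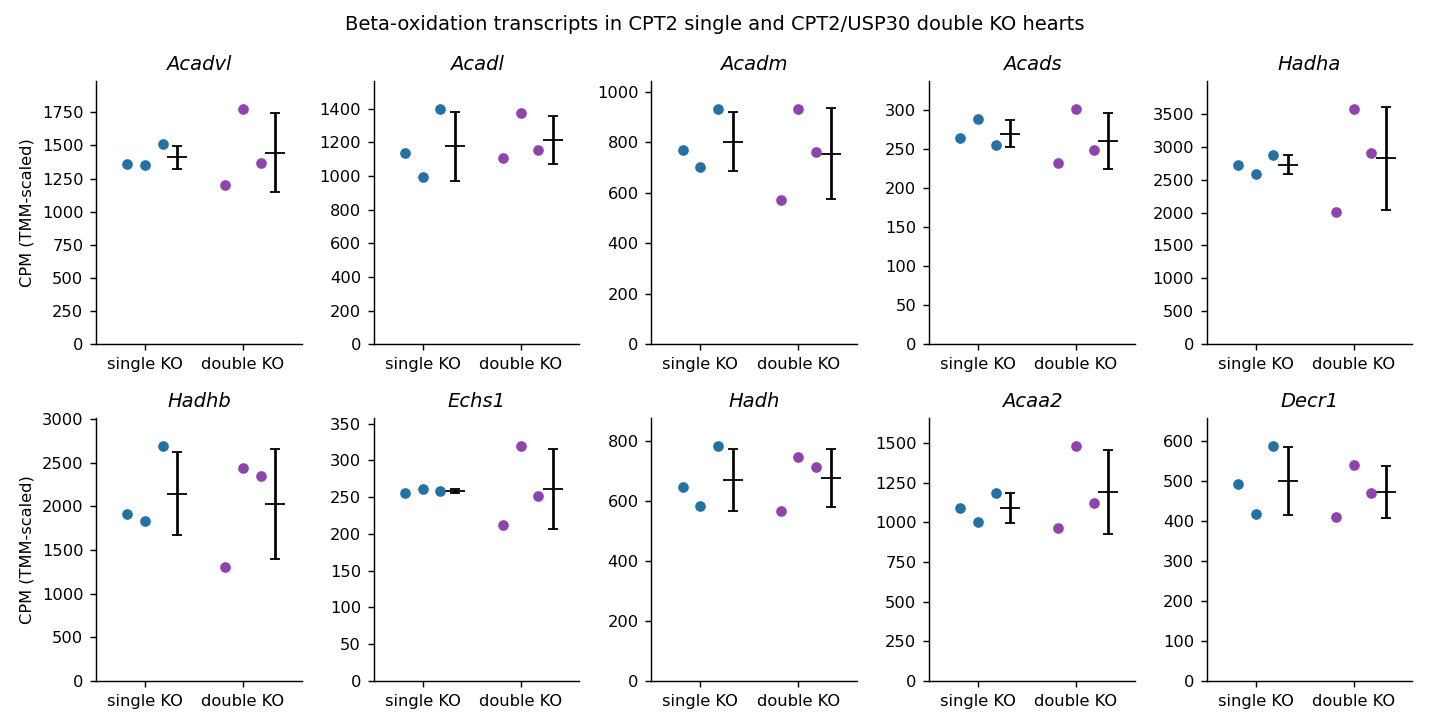
CPM (linear axis from 0) of each of the 10 enzymes in 3 CPT2 single KO and 3 CPT2/USP30 double KO hearts; points are libraries and bars show the mean and SD. The groups overlap for all 10 enzymes.

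With the atrial level as a covariate, the log2 differences between double and single KO hearts were below 0 for all 10 members, from -0.92 for Hadhb (edgeR adjusted p = 0.135) and -0.58 for Acadm (adjusted p = 0.273) to -0.10 for Acadl (adjusted p = 0.874), and none was called. That level (mean log2 CPM) was -0.08, -0.14 and 0.25 in the single KO hearts and 1.82, 7.33 and 9.25 in the double KO hearts. It followed the genotype, so level and genotype can be told apart only in part. The adjusted values lean on double KO replicate 1, which was also the lowest of its group for every member. In the 4 libraries lacking atrial transcripts (single KO replicates 1 to 3 and double KO replicate 1), also chosen after seeing the data, Hadhb stood at -0.72 (adjusted p = 0.166) and Hadha at -0.45 (adjusted p = 0.188), with the 1 double KO heart assumed to vary like the others. Since all 3 double KO libraries and 1 single KO library were near 0 in Y-linked transcripts, that difference and the genotype can be told apart only through the 1 single KO heart. Endothelial sums were 1169 to 1290 CPM against 879 to 1034 CPM (single, then double KO hearts), and red blood cell sums 8129 to 10042 and 4555 to 7763 CPM. Fibroblast sums (2106 to 3093 and 2405 to 3834 CPM) and macrophage sums (155 to 284 and 239 to 366 CPM) overlapped. Adipocyte sums were 0 to 0.0813 and 0.332 to 46.7 CPM. The part of these cells in the members' values was not tested.

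The 5 ratios also overlapped between single and double KO hearts. With 3 hearts against 3 the exact permutation test cannot go below 0.1. Acadm against Acadl was -0.56, -0.50 and -0.58 (log2) in single KO and -0.96, -0.56 and -0.60 in double KO hearts (difference -0.16, SE 0.13, exact permutation p = 0.2, adjusted 1). Double KO replicate 1 was the lowest of the 6 hearts in this ratio. The differences for Hadha/Hadhb, Acadl/Acadvl, Echs1/Hadha and Hadh/Hadha were 0.13 (SE 0.17), 0.03 (SE 0.12), -0.02 (SE 0.10) and 0.00 (SE 0.15), with exact permutation p of 0.5, 0.8, 0.8 and 1.

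Per kb, Hadhb was again the highest member in single KO hearts at 1047 ± 232 CPM per kb (SD, n = 3). Acaa2 (719 ± 61.3), Hadha (679 ± 36.6), Acadvl (649.9 ± 39.8) and Acadl (614 ± 106) followed, and each overlapped the next. Acadm (391.9 ± 57.1) and Hadh (375 ± 57.3) came after a gap, then Decr1 (169 ± 28.6), Echs1 (166 ± 1.602) and Acads (144 ± 9.33). In double KO hearts the first 5 places were the same, and in the lower places Hadh and Acadm, and Echs1 and Decr1, changed order within overlapping ranges. Of the dehydrogenase sum, Acadl made up 34.0% ± 2.27 in single KO and 35.3% ± 2.21 in double KO hearts, and Acadm 21.7% ± 0.820 and 20.2% ± 1.80.

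Around the spiral, none of the other listed genes was called in this comparison: 0 of 10 electron-transfer and auxiliary genes, 0 of 4 amino acid dehydrogenases, 0 of 5 of the carnitine shuttle, 0 of 4 for propionyl-CoA, 0 of 10 tested peroxisomal genes and 0 of 17 regulators. Ivd was at 189 ± 3.93 and 211 ± 51.8 CPM (SD, n = 3 each), and its log2 difference was 0.16 (edgeR adjusted p = 0.917). Cpt2 averaged 173 ± 8.72 CPM over the single and 177 ± 11.4 CPM over the double KO hearts, both of which carry the CPT2 deletion.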

How the data were processed

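RNA sequencing of 16 mouse hearts was read from 2 tables of raw counts per gene that the authors deposited: 14138 genes for the wild type and CPT2H-KO hearts, none with fewer than 151 counts in all, and 17831 genes for the single and double KO hearts. Per the labels' protocols, stranded total RNA libraries were made after ribosomal RNA removal. Per the submitters' processing notes, bcl2fastq, HISAT2 and DESeq2 1.42.0 were used with build mm10. The sources used here do not name the counting program, its annotation or its strand setting. Groups came from the sample titles. Of the second file 1 empty row was left out and 25 symbols written as dates were restored from their gene IDs; 20 such symbols elsewhere, none a listed gene, stayed as written.

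The deposited counts were tested over all genes of each table with edgeR 4.0.16 in R 4.3.3 (filterByExpr, TMM scaling, quasi-likelihood F test, Benjamini-Hochberg, threshold 0.05) after a check on simulated counts. CPM are counts per 1e6 of TMM-scaled library size, and intervals are 95% intervals of the same fit. CPM per kb used the length of the principal GENCODE M21 transcript. Total depth was at least 11067969 counts in each library. No 2 libraries of the same group agreed within counting noise (lowest chi-square per degree of freedom 10.7). Alternatives were DESeq2, limma-voom 3.58.1, other scalings, no filter, a replicate block, atrial and Y-linked covariates and each heart left out. The members, lists and ratios were chosen with earlier results of these data known. Named genes are the 10 members, Cpt2 and Usp30, up to 3 genes of smallest p in the first comparison per list, and the genes nearest each member. Cell type markers and genes overlapping a member are named beyond these.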

Additional observations from a re-analysis of the deposited data

How the results depend on the processing

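In the first comparison Acadl (0.49 to 0.86, log2), Acadm (-0.75 to -0.41) and Echs1 (-0.88 to -0.56) kept their direction and call under all 20 alternatives run. The count of members called, 5, became 3 with the Y-linked covariate and 3 in the libraries with atrial transcripts only, and 3 to 5 with 1 heart left out. The count over all genes, 4758, became 3103 with the atrial covariate and 3682 to 4787 with 1 heart left out. Library totals as the only scaling called 5659 genes, 827 of them higher, and 4 members, and turned the sign of Acadvl (-0.11), Acads (-0.16), Hadhb (-0.084), Acaa2 (-0.24) and Usp30 (-0.085), none of them called there. Acads also turned with the atrial covariate (-0.037) and in the libraries with atrial transcripts only (-0.088). With 1 heart left out, Hadh ranged from -0.069 to 0.020 and Acaa2 from -0.031 to 0.078. The cause was not tested.

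In the second comparison 0 members were called under any of 15 alternatives. Over all genes the 0 calls became 124 with DESeq2, 50 with the atrial covariate, 36 in the libraries lacking atrial transcripts only, and 0 to 114 with 1 heart left out (114 without double KO replicate 1, 4 without single KO replicate 3). Usp30 passed with DESeq2 (-1.18, adjusted p = 2.39e-04) and in edgeR without double KO replicate 1 (-1.23, adjusted p = 0.0218). Signs of uncalled members turned. With the atrial covariate the values were -0.25 (Acadvl), -0.099 (Acadl), -0.30 (Echs1), -0.33 (Hadh), -0.54 (Hadha) and -0.20 (Acaa2). In the libraries lacking atrial transcripts they were -0.24, -0.094, -0.29, -0.25, -0.45 and -0.18 in the same order. With the Y-linked covariate they were -0.071 (Acadvl), -0.24 (Acadl), 0.048 (Acads), -0.25 (Hadh), -0.028 (Hadha) and -0.0043 (Acaa2). Hadh was at -0.0018 with DESeq2 size factors, -0.0022 without the filter and -0.0087 with DESeq2, and Echs1 at -0.0051 with DESeq2 and -0.0056 with limma-voom.

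With 1 heart left out, the ranges of the log2 differences in the second comparison were -0.14 to 0.15 (Acadvl), -0.065 to 0.17 (Acadl), -0.27 to 0.077 (Acadm), -0.17 to 0.026 (Acads), -0.16 to 0.14 (Echs1), -0.083 to 0.13 (Hadh), -0.15 to 0.25 (Hadha), -0.23 to 0.15 (Hadhb), -0.062 to 0.26 (Acaa2), -0.19 to 0.041 (Decr1) and -0.018 to 0.066 (Cpt2). For the ratios they were -0.053 to 0.11 (Acadl/Acadvl), -0.11 to 0.038 (Echs1/Hadha), -0.011 to 0.22 (Hadha/Hadhb) and -0.11 to 0.11 (Hadh/Hadha).

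Deviations of same-numbered wild type and CPT2H-KO hearts correlated at 0.11, 0.07, 0.10, 0.23 and -0.09. Those of differently numbered hearts of these groups lay between -0.18 and 0.22, so the value of replicate 4 (0.23) was above them. For single and double KO hearts the same-numbered values were 0.08, -0.21 and 0.17, inside the spread of the differently numbered ones (-0.28 to 0.24). Correlations this few cannot decide whether the replicate numbers pair the hearts. With the replicate block, 3 members were called in the first comparison, with Hadha at 0.29 (adjusted p = 0.0704) and Decr1 at 0.30 (adjusted p = 0.0849), and the count over all genes was 4179. In the second comparison the block called 1 gene and 0 members, and Echs1 was at -0.0054.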
